A study of Mus musculus with 4 samples.

Results

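Peroxiredoxins and other antioxidant enzymes of the red cell were examined in mouse erythroleukemia (MEL) cells that lack Wdr26. The group comprised 10 genes fixed by symbol, namely Prdx1, Prdx2, Prdx3, Cat, Gpx1, Gpx4, Sod1, Sod2, Txn1 and Txnrd1, out of 17393 genes in the deposited table. All 10 passed the filter on low values (1 FPKM or more in 2 or more libraries), which left 10670 genes for the test. FPKM scales fragments by transcript length and by the total of the library, so levels of different genes can be set side by side.

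The cells were of the DS19 line, a virus-transformed erythroid precursor line of the mouse. There were 2 libraries from wild-type cells and 2 from cells whose genotype is given as Wdr26-/-, numbered 1 and 2 within each genotype. All 4 are described with the same medium and with 1.5% dimethyl sulfoxide as the inducer of erythroid-like differentiation, but the labels leave unstated whether it was given to the cells that were sequenced, how Wdr26 was disrupted, and whether the knockout cells were 1 clone. No label ties the 2 libraries of a genotype to separate cultures, so the p-values reflect only how far these samples differ, and that difference may be technical.

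Red cells carry hemoglobin and oxygen together, and slow oxidation of hemoglobin releases superoxide. Superoxide dismutases (the cytosolic Sod1 and the mitochondrial Sod2) turn superoxide into hydrogen peroxide, which catalase, the glutathione peroxidases and the peroxiredoxins then remove. Peroxiredoxins are recharged by thioredoxin, and thioredoxin by thioredoxin reductase at the expense of NADPH. Mice that lack Prdx1 or Prdx2 develop hemolytic anemia, and Prdx2 is among the most abundant proteins of the mature red cell.

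The upstream sequences of 4 of these genes are shown because they stand for the 2 patterns described here, values that separated by genotype in Prdx3, Gpx1 and Sod1 and values that separated by library number in Prdx1. Each is the 250 bases before the RefSeq start, read 5′ to 3′ on the strand of the gene in build GRCm38.p6 (mm10). Capitals mark matches, on either strand, to TGACNNNGC, the core of the antioxidant response element bound by Nrf2, and to TGAGTCA, the core bound by AP-1 and by the erythroid factor NF-E2.
Prdx3 (chr19:60874539-60874788, minus strand): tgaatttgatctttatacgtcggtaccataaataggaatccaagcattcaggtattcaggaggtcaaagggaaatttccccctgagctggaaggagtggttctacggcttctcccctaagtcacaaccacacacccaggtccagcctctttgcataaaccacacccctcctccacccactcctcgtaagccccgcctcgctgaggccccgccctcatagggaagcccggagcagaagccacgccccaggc
Gpx1 (chr9:108338830-108339079, plus strand): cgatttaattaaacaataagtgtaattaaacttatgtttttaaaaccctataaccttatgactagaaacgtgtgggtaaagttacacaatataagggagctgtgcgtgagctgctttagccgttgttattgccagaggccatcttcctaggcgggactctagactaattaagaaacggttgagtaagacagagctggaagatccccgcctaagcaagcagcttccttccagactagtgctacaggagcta
Sod1 (chr16:90220512-90220761, plus strand): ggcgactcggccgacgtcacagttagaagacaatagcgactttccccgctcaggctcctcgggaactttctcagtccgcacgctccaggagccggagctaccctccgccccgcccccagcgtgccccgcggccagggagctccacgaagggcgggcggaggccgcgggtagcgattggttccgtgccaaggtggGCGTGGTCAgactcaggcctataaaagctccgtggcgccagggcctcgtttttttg
Prdx1 (chr4:116685349-116685598, plus strand): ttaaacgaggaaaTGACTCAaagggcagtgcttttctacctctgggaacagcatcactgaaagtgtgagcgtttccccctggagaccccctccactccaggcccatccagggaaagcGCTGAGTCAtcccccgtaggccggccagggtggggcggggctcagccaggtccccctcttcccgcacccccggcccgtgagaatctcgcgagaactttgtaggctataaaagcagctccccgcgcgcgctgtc

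The Prdx1 window held 2 matches to TGAGTCA, of which the one nearer the start lies inside the match to TGACNNNGC. The Sod1 window held 1 match to TGACNNNGC, and so did 1 of the 3 Txnrd1 windows. The table holds 15 windows for the 10 genes, and the remaining ones held none of the 3 motifs searched, the third being AGATAA, the GATA type motif. Gpx4, which also separated by genotype, is among the genes without a match, and its windows are not shown. The Sod1 groups overlapped with median-centred values. Among all 32851 windows of this length in the same table, 10.2% held TGACNNNGC, 4.46% held TGAGTCA and 9.99% held AGATAA, on either strand. A match is a run of letters only, and its absence says nothing about the factor. The Gpx1 window was 42% G and C with 7 CpG and the Prdx3 window 55.6% with 9 CpG, where the median window had 52.4% and 6 CpG. The Prdx1 window also overlaps AV051173, a long noncoding RNA gene.

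Wdr26, the targeted gene, had 55.4 and 52.4 FPKM in wild type but 9 and 7.84 FPKM in knockout. Step sizes in the lowest values gave roughly 24500000 to 26600000 fragments per library, under an assumed loss of 200 bases of effective length. In limma, 10 of 10670 genes (0.0937%) passed an adjusted p of 0.05, and 3, 5, 738 and 328 passed without wild-type library 1, wild-type library 2, knockout library 1 and knockout library 2. All 10 erythroid markers fixed for the label were expressed, of which 5 were lower and 1 was higher in both knockout libraries, as were 10.8% and 29.9% of all genes; with each library centred on its median the marker counts were the same, against 20.1% and 19.9%. Their summed level, mostly globin, was 167843 and 207130 FPKM in wild type against 152857 and 178893 FPKM in knockout. Slc4a1, the band 3 anion exchanger of late erythroid cells, measured 436 and 285 FPKM against 48.6 and 6.70 FPKM. Of the other cell types checked, macrophage markers (1 of 6 above the filter) summed to 1.73 to 2.70 FPKM in wild type and 2.34 to 3.04 FPKM in knockout, and fibroblast, T cell, B cell and neutrophil markers to under 1 FPKM each, with Cd3d, Cd3e and Elane among those listed at 0. Of 4 megakaryocyte markers 3 were tested and 2 of these were higher in both knockout libraries, as were 29.9% of all genes. After median-centring, 0 were higher and 0 lower in both. The list, led by the integrin gene Itga2b, summed to 247 and 301.03 FPKM in wild type against 273 and 284 FPKM in knockout. The part of these markers in the results below was not tested. Fewer cells of a type and less RNA per cell cannot be told apart in such bulk libraries.

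Across the antioxidant enzymes, no gene passed the test between genotypes, and the members went in different directions. Prdx3, the mitochondrial peroxiredoxin, was 1.55-fold higher in knockout, and Sod1 1.18-fold higher. The glutathione peroxidase genes Gpx1 and Gpx4 were lower, at 77.9% and 80.8% of wild type. The groups overlapped for Prdx1, Prdx2, Cat, Sod2, Txn1 and Txnrd1. In limma 0 of 10 members passed an adjusted p of 0.05, where 0.0937% of all genes did. At an unadjusted p under 0.05 there were 2 (Prdx3 and Gpx1), where 11.4% of all genes reached it. Higher in both knockout libraries were 2 members against 29.9% of all genes, and lower in both were 2 against 10.8%. With median-centred values 1 was higher (Prdx3, against 19.9% of all genes) and 3 were lower (Gpx1, Gpx4 and Txn1, against 20.1%). The median log2 change was 0.011 over the 10 members and 0.067 over all genes tested, and the centred medians were −0.066 and −0.0095. For 4 members the genotype difference exceeded both differences between libraries of a genotype, as it did for 30.4% of all genes.

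**Figure D1:**
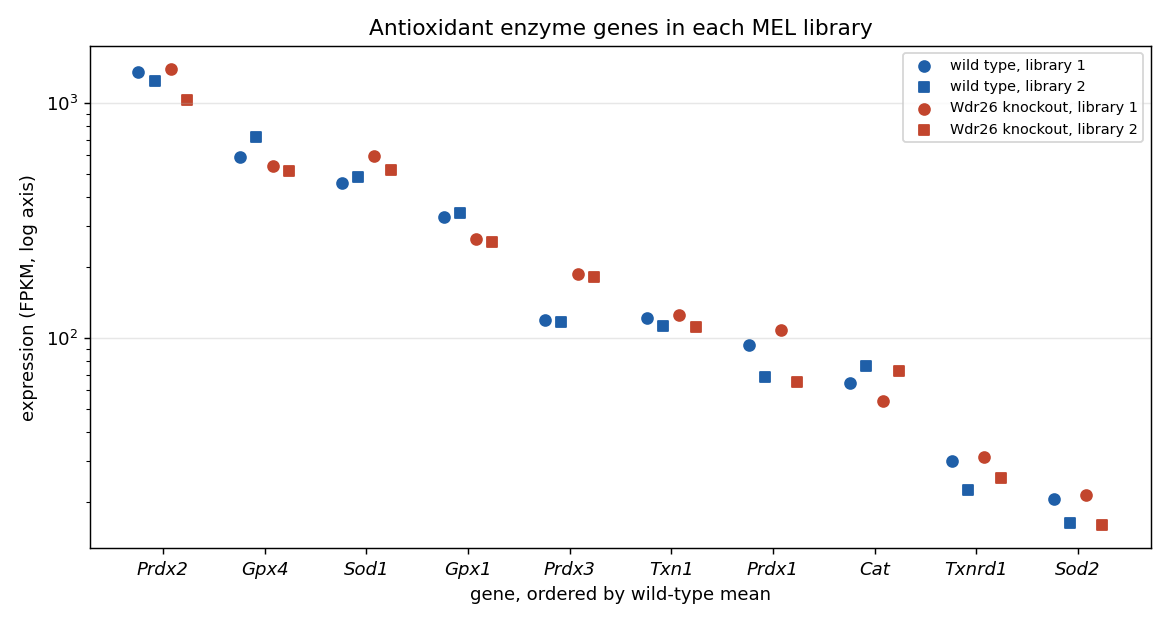
Expression of the 10 antioxidant enzyme genes in FPKM (log axis) in each of the 4 libraries, ordered by the wild-type mean; circles are libraries 1, squares libraries 2, blue wild type and red Wdr26 knockout. Prdx2 is the highest in every library, and the Prdx3 knockout points (187 and 182 FPKM) lie clear of the wild-type points (120 and 117 FPKM).

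The order of the levels, per length, was nearly the same in both genotypes. In wild type it ran Prdx2, Gpx4, Sod1, Gpx1, Prdx3, Txn1, Prdx1, Cat, Txnrd1 and Sod2, and the neighbours Prdx3 and Txn1, and Prdx1 and Cat, overlapped between libraries. In knockout Sod1 stood next to Gpx4 with overlapping values, Prdx3 stood above Txn1 without overlap, and Prdx1 and Cat again overlapped. The 10 genes summed to 3188 and 3195 FPKM in wild type against 3328 and 2796 FPKM in knockout. Prdx2 alone made up 42.6% and 38.8% of that sum in wild type, and 42.1% and 36.9% in knockout.

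Among the peroxiredoxins, Prdx3 (gene ID 11757, chromosome 19, 60864066 to 60874538, minus strand) had the clearest difference. The product removes hydrogen peroxide in the mitochondrial matrix. It measured 120 and 117 FPKM in wild-type libraries 1 and 2 against 187 and 182 FPKM in knockout libraries 1 and 2. Both knockout libraries were higher than both wild-type libraries, and libraries of the same genotype lay within 4.39 FPKM of each other. The wild-type mean was 119 ± 1.82 FPKM and the knockout mean 184 ± 3.10 FPKM (SD, n = 2). The log2 change was 0.63 with a standard error of 0.13 and a 95% interval of 0.33 to 0.94. In limma the adjusted p was 0.180 (unadjusted p = 0.00224), rank 132 of 10670 genes by p and rank 397 by size of change. The log2 change of Prdx3 was 0.61 and 0.65 without knockout libraries 1 and 2. It was 0.65 and 0.62 without wild-type libraries 1 and 2. No other gene of the RefSeq table overlaps Prdx3.

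**Figure D2:**
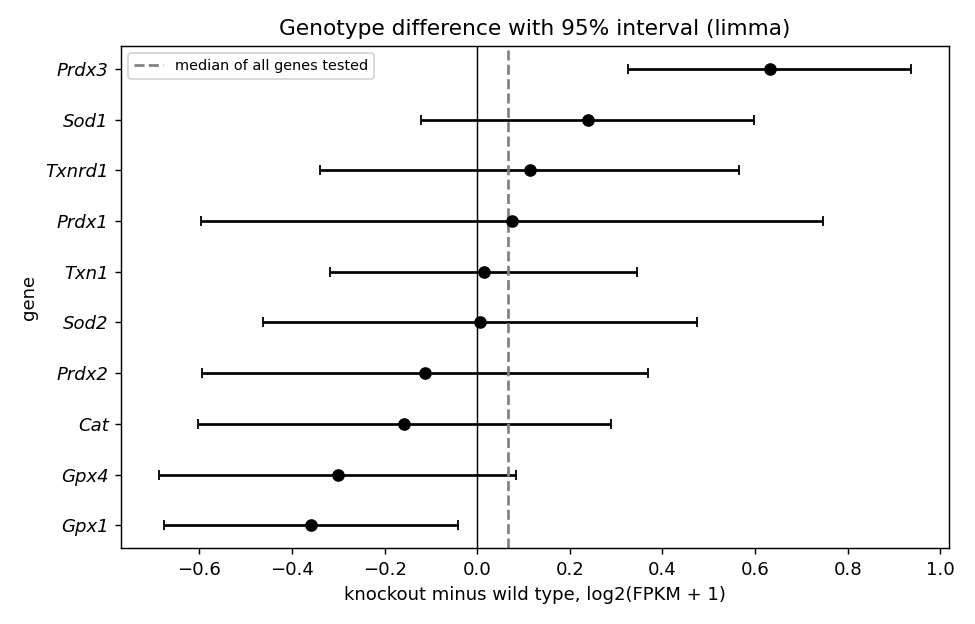
Knockout minus wild type on the log2(FPKM + 1) scale for the 10 genes, with 95% intervals from limma (n = 2 libraries per genotype); the dashed line is the median of all genes tested (0.067). The intervals of Prdx3 (0.33 to 0.94) and Gpx1 (−0.68 to −0.040) leave out 0, and those of the other 8 genes include it.

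Prdx2 (gene ID 21672, chromosome 8, 84969622 to 84974811), the main cytosolic peroxiredoxin of red cells, was the most abundant member and exceeded 99.5% of the genes tested. It measured 1360 and 1241 FPKM in wild type against 1400.4 and 1031 FPKM in knockout. The highest and the lowest value were both in knockout. The log2 change was −0.11 with a 95% interval of −0.59 to 0.37 (limma adjusted p = 0.904). Prdx1 (gene ID 18477, chromosome 4, 116685599 to 116700000), a cytosolic relative whose upstream window is shown above, measured 93.7 and 68.0 FPKM in wild type against 109 and 65.1 FPKM in knockout. The libraries numbered 1 were high and those numbered 2 low in both genotypes, and the groups overlapped. The log2 change of Prdx1 was 0.076 with an interval of −0.60 to 0.75 (limma adjusted p = 0.957), and with median-centred values it was −0.0014. AV051173 overlaps Prdx1, and the labels do not state whether strand was kept, so its reads cannot be told apart from those of Prdx1. Within a library, the ratio of Prdx3 to Prdx2 does not depend on how the library was scaled. It was 0.0883 and 0.0947 in wild type against 0.133 and 0.177 in knockout.

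The glutathione peroxidase genes were both lower in knockout, without passing the test. Gpx1 (gene ID 14775, chromosome 9, 108339080 to 108340342), a selenoprotein that reduces hydrogen peroxide in the cytosol and in mitochondria, measured 329 and 339.7 FPKM in wild type against 264 and 257 FPKM in knockout. Both knockout libraries were below both wild-type libraries. The means were 334 ± 7.56 FPKM and 261 ± 5.20 FPKM (SD, n = 2), and the log2 change was −0.36 with a standard error of 0.13 (adjusted p = 0.389 and unadjusted p = 0.0329 in limma). Gpx4 (gene ID 625249, chromosome 10, 80047166 to 80056439), the selenoprotein that reduces lipid hydroperoxides in membranes and holds back ferroptosis, measured 593 and 715 FPKM in wild type against 542 and 514 FPKM in knockout. The groups did not overlap, but the wild-type libraries differed from each other more than wild-type library 1 did from knockout library 1. The log2 change of Gpx4 was −0.30 (95% interval −0.69 to 0.084, limma adjusted p = 0.564). It was −0.17 without wild-type library 2. Together the pair summed to 922 and 1055 FPKM in wild type against 806 and 771 FPKM in knockout. The ratio of Prdx3 to Gpx1 within a library was 0.365 and 0.346 in wild type against 0.707 and 0.7096 in knockout. Prdx3 had the highest and Gpx1 the lowest log2 change of the 10 members. Their ratio was therefore bound to differ and adds nothing to their separate values. The table gives 1 value for all transcripts of a gene and does not separate the cytosolic and mitochondrial forms of Gpx4.

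Catalase (Cat, gene ID 12359, chromosome 2, 103453904 to 103485153), the heme enzyme that splits hydrogen peroxide, measured 64.6 and 76 FPKM in wild type against 54.1 and 72.6 FPKM in knockout. Knockout library 1 was the lowest, and the other knockout library lay between the wild-type libraries. The log2 change was −0.16 with an interval of −0.60 to 0.29 (limma adjusted p = 0.840).

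The superoxide dismutases differed in level, and neither passed the test between genotypes. Sod1 (gene ID 20655, chromosome 16, 90220762 to 90226333), the copper and zinc enzyme of the cytosol, measured 456 and 486 FPKM in wild type against 594 and 521 FPKM in knockout. Both knockout libraries were higher, knockout library 2 by the smaller margin. The log2 change was 0.24 (SE 0.15, 95% interval −0.12 to 0.60, limma adjusted p = 0.635), and with median-centred values it was 0.16 and the groups overlapped. Sod2 (gene ID 20656, chromosome 17, 13007839 to 13018119), the manganese enzyme of mitochondria, was the lowest member, at 20.7 and 16.4 FPKM in wild type against 21.4 and 16 FPKM in knockout. The pairs were nearly the same in both genotypes, with a log2 change of 0.0067 and an interval of −0.46 to 0.48 (limma adjusted p = 0.994), which turned negative with median-centred values (−0.070), quantile normalization (−0.084) and globin genes left out (−0.049).

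In values that were not centred, thioredoxin and its reductase differed between genotypes by less than between the libraries of a genotype. Txn1 (gene ID 22166, chromosome 4, 57943373 to 57956411), the cytosolic thioredoxin, measured 122 and 113 FPKM in wild type against 125 and 112 FPKM in knockout. It varied least of the 10 genes, and its log2 change was 0.014 with an interval of −0.32 to 0.35 (limma adjusted p = 0.986). That change was −0.063 with median-centred values, where both knockout libraries lay below both wild-type libraries. It was −0.043 with globin genes left out. Txnrd1 (gene ID 50493, chromosome 10, 82833951 to 82897724), the selenoprotein that reduces thioredoxin, measured 29.9 and 22.5 FPKM in wild type against 31.2 and 25.5 FPKM in knockout. The libraries numbered 1 were again the higher ones, and the groups overlapped (log2 change 0.11, interval −0.34 to 0.57, limma adjusted p = 0.892). Txnrd1 overlaps the gene Eid3 on the same strand, so its value is uncertain where they share reads.

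**Figure D3:**
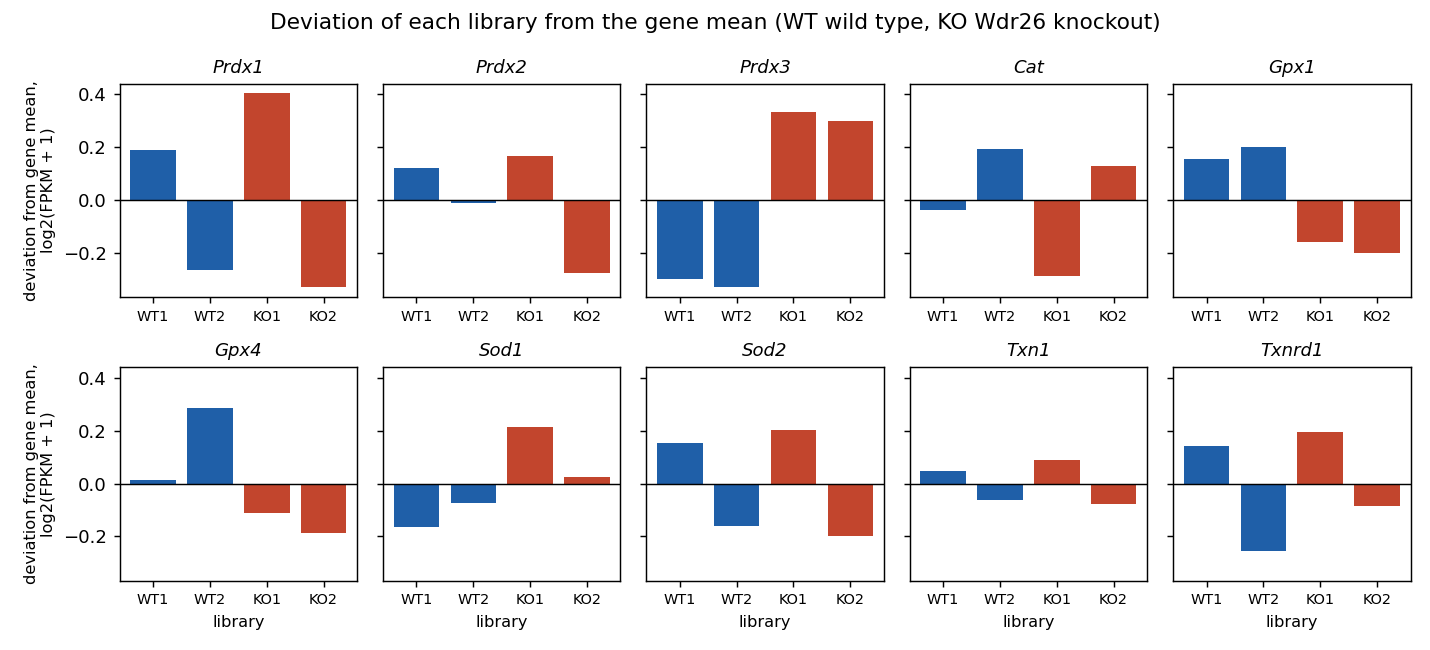
Deviation of each library from the gene's mean over the 4 libraries, on the log2(FPKM + 1) scale; blue bars are wild type (WT) and red bars Wdr26 knockout (KO), with the library number. Prdx3, Gpx1, Gpx4 and Sod1 separate by colour, whereas Prdx1, Sod2, Txn1 and Txnrd1 are above their mean in libraries 1 and below it in libraries 2.

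The libraries of a genotype differed in most members. In both genotypes, 6 of the 10 genes had the lower value in library 2, and 1 (Cat) had the higher value there. The difference was largest for Prdx1, with a log2 change from library 1 to library 2 of −0.46 in wild type and −0.73 in knockout. For Prdx3 the same differences were −0.031 and −0.034. The members with the largest range over the 4 libraries were Prdx1, Prdx3 and Cat, and for these the tested genes with the most similar pattern were identified by the root mean square difference of centred log2 values over the 4 libraries. Prdx1 was closest to Hspa5 (0.014), Polr1b (0.014) and Imp4 (0.020). Hspa5, the chaperone BiP of the endoplasmic reticulum, measured 273 and 200.1 FPKM in wild type against 316 and 195 FPKM in knockout. Prdx3 was closest to Slc41a3 (0.024), Plcg2 (0.026) and Phldb1 (0.028), of which Plcg2, a phospholipase C, measured 8.80 and 8.65 FPKM against 14.6 FPKM in both knockout libraries. Cat was closest to Hjurp (0.015), Slc30a9 (0.021) and Mdm2 (0.026). With 4 points per gene these are descriptions of these libraries.

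The wider antioxidant network was described through 10 further lists, which held 139 genes besides the members, 118 of them tested. None passed in limma (lowest adjusted p = 0.101), and 13 reached an unadjusted p under 0.05, which is 11% of the 118 and 11.4% of all genes. Of these 13, 10 were higher and 3 lower in knockout. Higher in both knockout libraries were 30 genes (25.4%) and lower in both 17 (14.4%), against 29.9% and 10.8% of all genes. With median-centred values the counts were 20 (16.9%) and 31 (26.3%), against 19.9% and 20.1%.

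**Figure D4:**
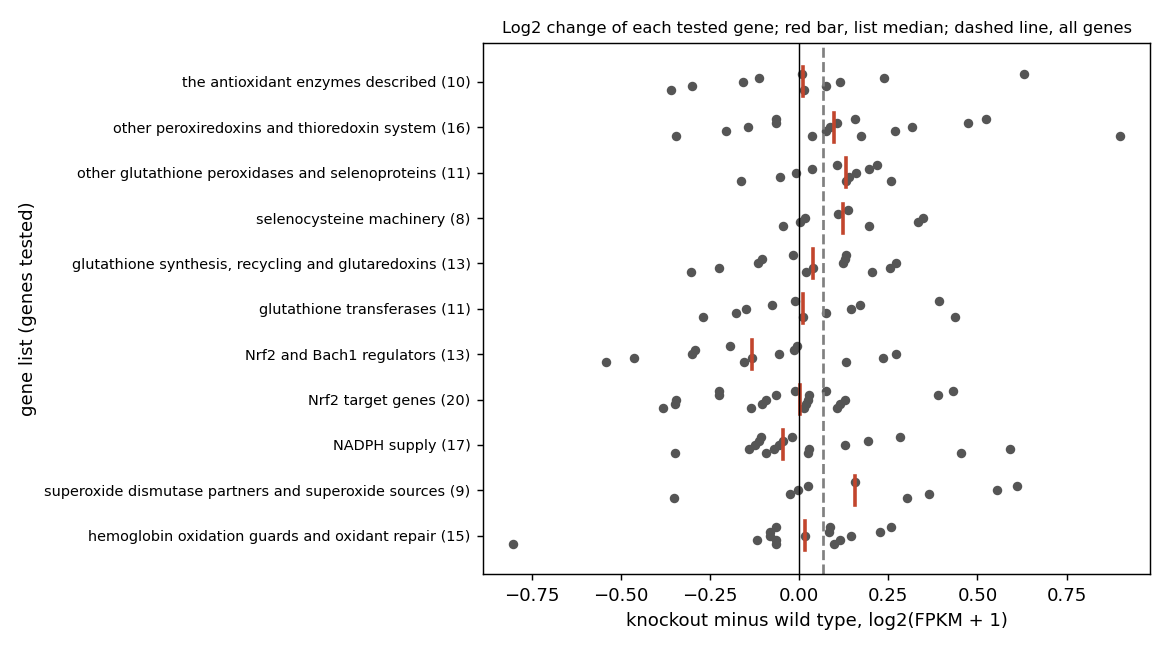
Log2 change (knockout minus wild type, log2(FPKM + 1)) of every tested gene in the 10 antioxidant enzymes and the 10 lists around them, with the number tested in brackets; red bars are list medians and the dashed line the median of all genes (0.067). The medians run from −0.13 (Nrf2 and Bach1 regulators) to 0.16 (superoxide dismutase partners and superoxide sources), and a list may share genes with another.

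In the list of other peroxiredoxins and the thioredoxin system, 16 genes were tested and the median was 0.097. In both knockout libraries 6 genes were higher and 3 lower, against 29.9% and 10.8% of all genes. At an unadjusted p under 0.05 in limma there were 4, against 11.4% of all genes. After median-centring 4 were higher and 4 lower in both, against 19.9% and 20.1%. The largest difference was that of Sesn2, a stress-induced sestrin, at 17.1 and 17.3 FPKM in wild type against 31.9 and 34.1 FPKM in knockout. Both knockout values were higher than both wild-type values. The log2 change of Sesn2 was 0.90 (SE 0.13, limma adjusted p = 0.101). It was 0.95 and 0.85 without knockout libraries 1 and 2, and 0.89 and 0.91 without wild-type libraries 1 and 2. Txndc12, a thioredoxin-like protein of the endoplasmic reticulum, measured 5.67 and 5.32 FPKM against 7.51 and 9.24 FPKM (limma adjusted p = 0.313). The following genes of this list were chosen after their values were seen. Srxn1, the sulfiredoxin that restores overoxidized peroxiredoxins, measured 33.7 and 40.1 FPKM in wild type against 28.8 and 28.7 FPKM in knockout (limma adjusted p = 0.436). For the mitochondrial partners of Prdx3, the groups overlapped for 1 and were lower in both knockout libraries for the other. Txn2, the mitochondrial thioredoxin, measured 102 and 94.0 FPKM against 115 and 76.9 FPKM, and its reductase Txnrd2 measured 30.9 and 30.2 FPKM against 28.8 and 24.1 FPKM. The remaining peroxiredoxins were nearly level, with log2 changes of −0.064 for Prdx4, 0.088 for Prdx5 and 0.16 for Prdx6.

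Selenoprotein genes were described because Gpx1, Gpx4 and Txnrd1 depend on selenocysteine. In the list of other glutathione peroxidases and selenoproteins 11 genes were tested and the median was 0.13. None of the 11 is a glutathione peroxidase gene, since Gpx3 was under the filter on low values and Gpx7 and Gpx8 were absent. In both knockout libraries 2 were higher and 0 lower, against 29.9% and 10.8% of all genes, and none reached an unadjusted p under 0.05. After median-centring the counts were 1 and 2, against 19.9% and 20.1%. The most abundant were Selenof at 91.4 and 74.7 FPKM in wild type against 96.7 and 74.1 FPKM in knockout, and the methionine sulfoxide reductase gene Msrb1 at 36.8 and 43.4 FPKM against 48.7 and 47.3 FPKM. Among 8 genes of the selenocysteine machinery the median was 0.12, with 3 higher and 0 lower in both and none at an unadjusted p under 0.05. After median-centring 1 was higher and 1 lower. Trnau1ap, which binds the selenocysteine tRNA, measured 27.7 and 23.9 FPKM against 36.5 and 29.8 FPKM (limma adjusted p = 0.496), and Rpl30, a ribosomal protein that also binds selenocysteine insertion elements, measured 924 and 1073 FPKM against 946 and 985 FPKM.

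Glutathione genes had list medians a little below that of all genes. The list of synthesis, recycling and glutaredoxins had a median of 0.038 over 13 tested genes. In both knockout libraries 4 were higher and 2 lower, against 29.9% and 10.8% of all genes. After median-centring 3 were higher and 2 lower, against 19.9% and 20.1%. Glrx5, the mitochondrial glutaredoxin of iron-sulfur cluster assembly, measured 493 and 487 FPKM in wild type against 428 and 368 FPKM in knockout (limma adjusted p = 0.528). Glo1, which clears methylglyoxal, measured 139.8 and 155 FPKM against 148 and 174 FPKM. The 11 tested glutathione transferases had a median of 0.010, with 1 higher and 1 lower in both, and 1 higher and 3 lower after median-centring. The most abundant were Gstt1 (157 and 187 FPKM, then 169 and 176 FPKM) and Gstp1 (145 and 151 FPKM, then 168 and 146 FPKM). Gstp1 has a near-identical copy, Gstp2, which was listed at 0 in all 4 libraries, and the split of reads between them is uncertain. In neither list did a gene reach an unadjusted p under 0.05 with all 4 libraries. Gsto1, an omega-class transferase named after its values were seen, measured 23.3 and 17.8 FPKM in wild type against 33.8 and 23.1 FPKM in knockout. The groups overlapped (log2 change 0.44, limma adjusted p = 0.546). The log2 change of Gsto1 was 0.17 and 0.70 without knockout libraries 1 and 2. It was 0.63 and 0.25 without wild-type libraries 1 and 2.

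The regulators of antioxidant genes had the lowest list median, −0.13 over 13 tested genes, with 3 higher and 7 lower in both knockout libraries, against 29.9% and 10.8% of all genes, and 1 at an unadjusted p under 0.05. With median-centred values 2 were higher and 9 lower in both, against 19.9% and 20.1%. The gene under that unadjusted p, named after its values were seen, was Foxo3, a forkhead factor that drives antioxidant genes in erythroid cells. It measured 191 and 185 FPKM in wild type against 124 and 133 FPKM in knockout, lower in both (log2 change −0.54, SE 0.13, limma adjusted p = 0.236). Nfe2, the erythroid partner of small Maf proteins, measured 175 and 218 FPKM against 159 FPKM in both knockout libraries (limma adjusted p = 0.567), and the small Maf gene Maff measured 2.98 and 3.27 FPKM against 1.55 and 2.51 FPKM (limma adjusted p = 0.478). Nfe2l2, which encodes Nrf2, was nearly level, at 31.6 and 28.8 FPKM against 29.6 and 30.5 FPKM. Keap1, the gene of the Nrf2 inhibitor, and the repressor gene Bach1 were also named after their values were seen. Both were lower in both knockout libraries. Keap1 measured 100.5 and 104 FPKM against 84.7 and 81.1 FPKM (limma adjusted p = 0.447), and Bach1 16.1 and 15.5 FPKM against 12.8 and 14.6 FPKM (limma adjusted p = 0.690). The Nrf2 target list, which includes Prdx1, Txn1 and Txnrd1, had a median of 0.0015 over 20 tested genes. In it 3 were higher and 4 lower in both, and 4 had an unadjusted p under 0.05 in limma (11.4% of all genes). Centring each library on its median gave 2 higher and 7 lower in both, against 19.9% and 20.1% of all genes. Its most abundant genes were those of the ferritin chains, Ftl1 at 7788 and 5879 FPKM in wild type against 7101 and 3804 FPKM in knockout, and Fth1 at 2880 and 2935 FPKM against 2747 and 2553 FPKM.

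Genes that supply NADPH had a median of −0.045 over 17 tested genes. In both knockout libraries 2 were higher and 1 was lower, against 29.9% and 10.8% of all genes. At an unadjusted p under 0.05 in limma there were 3, against 11.4% of all genes. Centring each library on its median gave 2 higher and 7 lower in both, against 19.9% and 20.1%. Idh2, the mitochondrial NADP-dependent isocitrate dehydrogenase, measured 28.4 and 26.7 FPKM in wild type against 50.2 and 35.1 FPKM in knockout. It was higher in both, with knockout library 1 well above the other, and did not pass (log2 change 0.59, limma adjusted p = 0.342). The log2 change of Idh2 was 0.34 and 0.84 without knockout libraries 1 and 2. It was 0.63 and 0.55 without wild-type libraries 1 and 2. Taldo1, transaldolase of the pentose phosphate pathway, measured 192 and 218 FPKM against 164 and 158 FPKM (limma adjusted p = 0.415). In the list of hemoglobin oxidation guards and oxidant repair the median was 0.016 over 15 tested genes. In it 2 were higher and 2 lower in both, with none at an unadjusted p under 0.05. After median-centring 1 was higher and 1 lower. Ahsp, the chaperone of free alpha globin, had the largest difference there. Its wild-type values were 1778 and 1196 FPKM, its knockout values 1179 and 593 FPKM (limma adjusted p = 0.483). The log2 change of Ahsp was −0.80 with every library kept. It became −1.30 and −0.31 without knockout libraries 1 and 2. Without wild-type libraries 1 and 2 it was −0.52 and −1.09, so its size depended on the libraries kept. Blvrb, the biliverdin reductase B of red cells, measured 335 and 321 FPKM against 362 and 272 FPKM, with overlapping groups.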

How the data were processed

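The authors deposited 1 table of FPKM for 4 libraries, without a unit in the header. Products of the values and GENCODE M21 transcript lengths summed to 1067067313 to 1080561603 per library over 16050 genes with a length, close to the 1e+09 that FPKM gives. TopHat2 and mm10 are named in the submitters' processing notes, while the program that made the FPKM is not stated there. Depth was estimated as the number of fragments that made the low values of genes with 1 short transcript closest to whole fragments, with 6 cuts on which values count as low. The labels' protocols state ribosomal RNA depletion. Libraries were grouped by title.

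Values were analysed as log2(FPKM + 1), and a change on that scale understates that of low genes. The 10670 genes with 1 FPKM or more in 2 or more libraries were fitted in limma 3.58.1 (R 4.3.3; lmFit, eBayes with trend, no covariate), with Benjamini-Hochberg adjustment over all of them, and the procedure was tested on simulated data. An exact permutation test of 2 against 2 libraries cannot give a two-sided p below 0.333, so none was run. Fold differences are ratios of mean FPKM. The named genes were the members, and from each list those past the threshold, up to 3 at least 1.5-fold different without overlap, filled to 2 by level. The members and lists were chosen with earlier results of these data known. The 12 alternatives were a pseudocount of 0.1, all genes detected kept, a minimum mean of 5 FPKM, median-centred values, quantile normalization, globin genes left out, limma without the trend, a replicate block and each library left out in turn. Some list genes are not reported here by name. Coordinates and upstream sequences came from RefSeq tables of GRCm38.p6, in which all 10 members matched by gene ID.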

Additional observations from a re-analysis of the deposited data

How the results depend on the processing

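The number of genes passing among all genes tested (10) was 0 without a filter on low genes, 2 with a mean of at least 5 FPKM, 21 with 11 globin genes left out, 1863 with the library number as a replicate block, and 3 to 738 with single libraries left out. Among the 10 antioxidant enzymes the count of 0 became 2 with the replicate block, where 1863 of all 10670 genes passed. These were Prdx3 (limma adjusted p = 7.68e-06) and Gpx1 (limma adjusted p = 0.0189). Of the 118 other network genes 20 passed with the replicate block, a share close to the 1863 of 10670 over all genes. Among the 20 were Sesn2 (limma adjusted p = 3.69e-09), Ahsp (2.6e-05), Idh2 (4.16e-05), Foxo3 (0.000118) and Gsto1 (0.00229). The block fit has 1 residual degree of freedom per gene. Deviations of same-numbered libraries correlated at 0.61 across 10670 genes, which are not independent, and nothing in the labels pairs the libraries. The median of the members (0.011) was −0.066 with median-centred values and −0.13 to 0.16 with single libraries left out. Prdx3, Gpx1, Gpx4 and Sod1 kept their direction in all 12 alternatives, but most of these could not turn it. The filters, the trend and the block left the log2 change of each member as it was. Leaving out 1 library cannot turn the direction of a gene whose groups do not overlap, as in these 4. The other members turned in at least 1 alternative. With median-centred values the log2 change was −0.00137 for Prdx1, −0.070 for Sod2 and −0.063 for Txn1. With globin genes left out it was −0.049 for Sod2 and −0.043 for Txn1, and with quantile normalization −0.084 for Sod2. With single libraries left out it ran from −0.29 to 0.44 for Prdx1, −0.33 to 0.11 for Prdx2, −0.37 to 0.051 for Cat, −0.19 to 0.21 for Sod2, −0.069 to 0.097 for Txn1 and −0.084 to 0.31 for Txnrd1. List medians kept their sign in all 12 alternatives for 5 of the 10 lists, and the regulators had the lowest in all 12. Limma without the trend and the replicate block left every list median as it was, so they could not change a sign or the order. With median-centred values, quantile normalization and globin genes left out, the median was 0.020, 0.039 and 0.040 for other peroxiredoxins and thioredoxin, and −0.039, −0.016 and −0.019 for glutathione synthesis. It was −0.21 for the regulators with median-centred values and with quantile normalization, and 0.035 for the selenocysteine machinery with quantile normalization. For the superoxide list it was 0.020 without the filter and 0.026 at a minimum mean of 5 FPKM. With single libraries left out the medians ran from 0.058 to 0.15 for other peroxiredoxins and thioredoxin, 0.048 to 0.22 for the selenocysteine machinery, 0.0094 to 0.089 for glutathione synthesis, −0.13 to 0.18 for the transferases, 0.15 to 0.31 for the superoxide list and −0.14 to 0.24 for the hemoglobin guards. The cause of these changes was not tested. FPKM carries no counts, so no counting interval was computed.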

Other observations

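Genes that make superoxide or serve the dismutases were the list with the highest median of the 10, 0.16 over 9 tested genes, with 5 higher and 0 lower in both knockout libraries (29.9% and 10.8% of all genes), 3 at an unadjusted p under 0.05 (11.4% of all genes) and 0 past the test in limma. With median-centred values 4 were higher and 0 lower in both, against 19.9% and 20.1%. The list had the highest median in 10 of 12 alternatives, of which limma without the trend and the replicate block could not change the order. Its median was 0.020 over 12 genes without the filter on low values and 0.026 over 7 genes at a minimum mean of 5 FPKM, where the list of other glutathione peroxidases and selenoproteins was highest (0.13 and 0.14). Cyba, a subunit of the phagocyte NADPH oxidase, was named after its values were seen. It measured 47.7 and 62.3 FPKM in wild type against 80.1 and 81.1 FPKM in knockout (limma adjusted p = 0.305). Rac2, the small GTPase of the same oxidase, measured 118 FPKM in both wild-type libraries against 147 and 144 FPKM (adjusted p = 0.439). Xdh, xanthine dehydrogenase, measured 2.02 and 1.63 FPKM against 3.95 and 2.75 FPKM (adjusted p = 0.348).

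Txnip, the inhibitor of thioredoxin, was chosen after its values were seen, because 1 library stood apart. It measured 786 and 880.3 FPKM in wild type against 721 and 1392 FPKM in knockout libraries 1 and 2, so the knockout libraries lay on either side of the wild-type libraries.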
